A study of Mus musculus with 12 samples.

Results

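The endothelial surface adhesion molecules *Pecam1*, *Cdh5*, *Icam2*, *Esam*, *Jam2*, *Jam3*, *Emcn*, *Cd34*, *Mcam* and *Cd93* were followed in bulk RNAseq during *Sox17*-*Erg* reprogramming. They are 10 of the 35727 genes in the deposited table, and each symbol matched 1 row. Fibroblasts from pooled neonatal hearts of C57BL/6J mice were infected with retroviruses carrying *Sox17* and *Erg*, or were control cultures, marked PMX in the library names like the pMX backbone of the viruses. RNA was taken on Day 3, on Day 7 and after 4 weeks from cells grown in EGM2, an endothelial growth medium shared by both conditions, so the 6 groups differ by virus and by time and have 2 libraries each. The labels call the control cells fibroblasts and the *Sox17*-*Erg* cells iECs. The study added a step that depletes PECAM1+ cells from the starting fibroblasts for its characterization of iECs, and in that protocol THY1+ cells were then kept by magnetic selection. The labels name neither step for single libraries, and for the cultures from which RNA was taken the sources used here describe no later sort. The sources used here do not say whether replicates come from separate heart isolations, so the p-values measure only the spread between these libraries, which may be technical.

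Endothelial cells line vessels as a single sheet, and their surface adhesion molecules hold neighbouring cells together, seal the sheet and let leukocytes attach and cross. VE-cadherin, the product of *Cdh5*, is the adhesion receptor of the adherens junction. Several of the 10 genes are also used outside the endothelium: *Pecam1* in platelets and leukocytes, *Cd93* in monocytes and macrophages, *Mcam* in pericytes and smooth muscle cells, and *Cd34*, *Jam2* and *Jam3* in mesenchymal cells. In bulk RNA, fewer cells of a type and less RNA per cell cannot be told apart.

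Between 19011635 and 41240449 counts fell on genes in each library. *Sox17* reached 432 to 1036 CPM, the counts scaled to library size, in the 6 *Sox17*-*Erg* libraries and at most 0.416 in the 6 control libraries. *Erg* reached 17.1 to 65.2 CPM in the former and 0.0728 to 2.27 in the latter. All 10 adhesion genes passed the filter on low counts, and 8 of them had at least 10 counts in every library. The other two, *Cdh5* and *Icam2*, had 6 and 3 counts in their lowest control library.

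The second control library of Day 3 and of Day 7 stood apart from its replicate in some endothelial genes, which was seen in the data and not tested. *Cdh5* was at 14.3 CPM in the second and 0.910 in the first library on Day 3, and at 8.08 and 0.230 on Day 7. *Emcn* was at 7.40 and 1.24 CPM on Day 3 and at 3.78 and 1.15 on Day 7. *Erg* itself was at 2.27 and 0.0728 CPM in these libraries on Day 3. Of 10 further endothelial markers 8 on Day 3 and 9 on Day 7 were higher in the second library, 6 of them on either day by more than 2 times, such as *Tie1* at 4.76 and 0.946 CPM on Day 3 and at 4.94 and 0.154 on Day 7. *Kdr* and *Icam2* did not follow: *Kdr* was at 2.82 in the second and 4.00 in the first library on Day 3 and at 2.53 and 2.77 on Day 7, and *Icam2* was at 0.879 and 1.16 CPM on Day 3 and at 0.723 and 0.730 on Day 7. Results of the members whose call turned on these 2 libraries are given with and without them, while the other gene lists except the junction partners were fitted only with all libraries.

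*Cdh5*, *Icam2*, *Emcn* and *Mcam* were higher in the *Sox17*-*Erg* cultures at every time point, *Pecam1* and *Cd93* from Day 7, and *Jam3* after 4 weeks. *Cd34* was lower at every time point, and *Esam* and *Jam2* did not pass the test at any. On Day 3, 4 of the 10 genes were higher and 1 lower at an edgeR adjusted p under 0.05, beside 7.19% and 5.13% of the 15506 genes tested. On Day 7, 6 were higher and 1 lower, beside 9.48% and 7.93%. After 4 weeks 7 were higher and 1 lower, beside 11.9% and 11%. The Day 3 count rested on single libraries: 1 member was higher without the second control or the first *Sox17*-*Erg* library of that day and 2 without the first control library, and 0 were lower without that *Sox17*-*Erg* library. After 4 weeks 0 were lower without the first control library or either *Sox17*-*Erg* library of that time.

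The median log2 fold change of the 10 genes was 1.07 on Day 3, 2.02 on Day 7 and 4.08 after 4 weeks. The median over all genes tested was 0.01 on Day 3, 0.0058 on Day 7 and -0.0143 after 4 weeks. The libraries of both conditions did not overlap, with *Sox17*-*Erg* higher, for 7 members on Day 3 and for 8 on Day 7 and after 4 weeks. Such a lack of overlap upward was seen in 34.1%, 29% and 30.3% of all genes tested, since each group has only 2 libraries. *Cd34* was the 1 member without overlap downward at each time point, beside 29.9%, 28.8% and 32.4% of genes. Without the 2 control libraries that stood apart, fewer members passed on Day 3 and on Day 7, and as many after 4 weeks. In that fit the remaining control library of Day 3 or Day 7 is assumed to vary like the other groups. The share of all genes that passed in it is not reported here, so fewer calls among the members cannot be told from fewer calls over all genes.

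**Figure D1:**
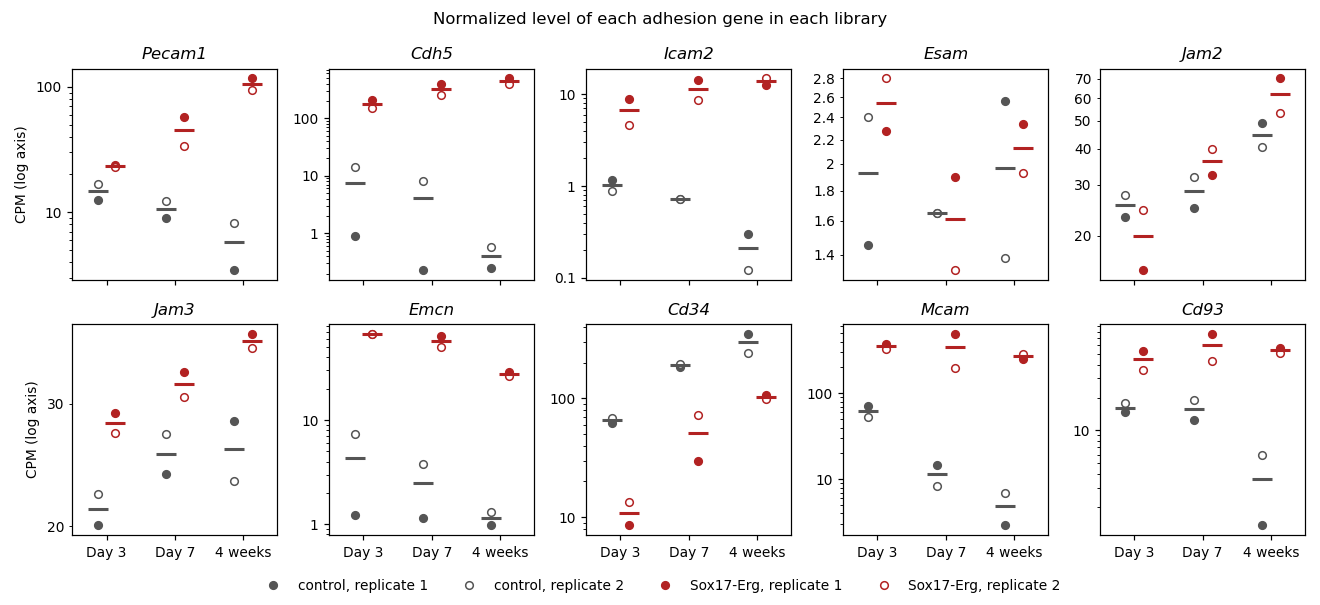
CPM on a log axis for each of the 10 genes in each of the 12 libraries, with filled and open circles for replicates 1 and 2 and a short line for the mean of 2. *Cdh5* lay at 148 to 496 CPM in the *Sox17*-*Erg* libraries, while the control replicates were split on Day 3 and Day 7, and *Cd34* was the only gene with every *Sox17*-*Erg* library below both control libraries of its time point.

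The junctional adhesion receptors differed in how far they moved. *Pecam1* (chromosome 11, 106654217 to 106750628 on the reverse strand of GRCm38) encodes a homophilic receptor of the immunoglobulin family at endothelial cell borders. In control libraries it was at 12.6 and 16.7 CPM on Day 3, 8.95 and 12.4 on Day 7, and 3.46 and 8.17 after 4 weeks. In *Sox17*-*Erg* libraries it was at 23.6 and 23.0 CPM on Day 3, 57.5 and 33.6 on Day 7, and 117 and 94.6 after 4 weeks. The groups were apart at each time point, and the gap opened from both sides. The log2 fold change was 0.67 ± 0.38 (standard error) on Day 3, with an adjusted p of 0.266 that did not pass. It was 2.10 ± 0.39 on Day 7 (adjusted p = 0.00689) and 4.21 ± 0.42 after 4 weeks (adjusted p = 0.000203). The Day 7 call was lost without the first *Sox17*-*Erg* library of Day 7, at 1.66 with an adjusted p of 0.0517.

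*Cdh5* (chromosome 8, 104101625 to 104144511 on the forward strand) was far above control from Day 3 on and was higher still later. It was at 208 and 148 CPM in the *Sox17*-*Erg* libraries on Day 3, 400.1 and 248 on Day 7, and 496 and 394 after 4 weeks. The control libraries after 4 weeks held 0.251 and 0.569 CPM, which are 10 and 14 counts. With the split control replicates of the earlier time points included, every *Sox17*-*Erg* library was higher than every control library. As a log2 fold change the difference was 4.58 ± 1.23 on Day 3, 6.29 ± 1.34 on Day 7 and 10.17 ± 1.67 after 4 weeks, with adjusted p-values of 0.0428, 0.0128 and 0.00269. *Cdh5* had the widest errors of the 10 genes. Leaving out both control libraries that stood apart gave 7.57 ± 0.59 on Day 3 and 10.42 ± 0.70 on Day 7, with adjusted p-values of 0.00484 and 0.001. Leaving out single libraries ended the Day 3 call in 9 of 12 cases, with log2 fold changes from 3.64 to 7.57 and adjusted p-values from 0.0514 to 0.189, and only without either control library of Day 7 or the first *Sox17*-*Erg* library of Day 7 was it kept. On Day 7 the call was also lost when only the libraries of that time point were fitted (log2 fold change 6.28, adjusted p = 0.0599).

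*Esam*, *Jam2* and *Jam3* encode immunoglobulin receptors at tight junctions, and JAM-B and JAM-C, the products of *Jam2* and *Jam3*, bind each other across cells. *Esam* (chromosome 9, 37528078 to 37538319, forward strand) was low in all 12 libraries. It lay between 1.38 and 2.56 CPM in the control libraries and between 1.32 and 2.80 in the *Sox17*-*Erg* libraries, from 30 to 102 counts. The groups overlapped at each time point, with log2 fold changes of 0.40 ± 0.38, -0.03 ± 0.39 and 0.10 ± 0.38 from Day 3 to 4 weeks and adjusted p-values of 0.522, 0.978 and 0.882. The sign of the *Esam* difference depended on the setting on Day 7 and after 4 weeks.

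*Jam2* (chromosome 16, 84774123 to 84825928, forward strand) was at 23.1 and 27.7 CPM in control libraries on Day 3, 25.0 and 32.0 on Day 7, and 49.1 and 40.5 after 4 weeks. In *Sox17*-*Erg* libraries *Jam2* was at 15.2 and 24.5 CPM on Day 3, 32.4 and 39.9 on Day 7, and 70.4 and 53.4 after 4 weeks. It climbed in both conditions, and the groups overlapped on Day 3 only. The fitted log2 fold change was -0.35 ± 0.25 on Day 3, 0.34 ± 0.25 on Day 7 and 0.47 ± 0.24 after 4 weeks, with adjusted p-values of 0.375, 0.373 and 0.204. With the replicate number as a block within each time point, the 4-week difference was 0.46 ± 0.12 and passed (adjusted p = 0.0254).

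*Jam3* (chromosome 9, 27097384 to 27155421, reverse strand) was at 20.0 and 22.2 CPM in control libraries on Day 3, 23.7 and 27.1 on Day 7, and 28.4 and 23.2 after 4 weeks. The *Sox17*-*Erg* libraries held 29.0 and 27.2 CPM of *Jam3* on Day 3, 33.4 and 30.7 on Day 7, and 37.9 and 36.1 after 4 weeks. They were above both control libraries at each time point by a small margin. Its log2 fold change was 0.41 ± 0.13, 0.33 ± 0.13 and 0.52 ± 0.13, with adjusted p-values of 0.0704, 0.112 and 0.0192, so only the 4-week difference passed. It was lost without the second control library or either *Sox17*-*Erg* library of 4 weeks, with log2 fold changes from 0.39 to 0.53 and adjusted p-values from 0.0654 to 0.106. *Jam3* shares 1159 exonic bases with the antisense gene *Gm48796*, and the strand setting of the quantification is not given in the sources used here, so reads from both may not have been told apart.

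*Icam2* (chromosome 11, 106377656 to 106388075, reverse strand), a ligand of leukocyte integrins that endothelial cells carry without stimulation, lies 266141 bases from *Pecam1*. Control libraries held 1.16 and 0.879 CPM on Day 3, 0.730 and 0.723 on Day 7, and 0.301 and 0.122 after 4 weeks, the last of these being 3 counts. *Icam2* was at 8.91 and 4.57 CPM in *Sox17*-*Erg* libraries on Day 3, 14.3 and 8.61 on Day 7, and 12.7 and 14.9 after 4 weeks. The groups were separate throughout. On the log2 scale the fold change was 2.70 ± 0.42 on Day 3, 3.98 ± 0.44 on Day 7 and 5.91 ± 0.50 after 4 weeks, with adjusted p-values of 0.00625, 0.000593 and 7.85e-05. Without the second control library of Day 3, the Day 3 difference was 2.49 with an adjusted p of 0.0617, and without both that stood apart it was 2.49 with an adjusted p of 0.0864.

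The sialomucins *Emcn* and *Cd34* went in opposite directions. Endomucin and CD34 are heavily glycosylated surface proteins that can keep cells from adhering and, with suitable glycans, bind selectins. *Emcn* (chromosome 3, 137341067 to 137432185, forward strand) was at 67.8 and 67.9 CPM in *Sox17*-*Erg* libraries on Day 3, 63.6 and 50.6 on Day 7, and 29.1 and 26.7 after 4 weeks. Control libraries held 1.24 and 7.40 CPM of *Emcn* on Day 3, 1.15 and 3.78 on Day 7, and 0.977 and 1.30 after 4 weeks. The *Sox17*-*Erg* libraries were far above control throughout and held less after 4 weeks than on Day 3. The log2 fold change was 4.00 ± 0.69, 4.54 ± 0.71 and 4.63 ± 0.74 from Day 3 to 4 weeks, with adjusted p-values of 0.00941, 0.00328 and 0.00245. Without the control libraries that stood apart it was 5.74 ± 0.28 on Day 3 and 5.61 ± 0.28 on Day 7. The Day 3 call was lost without the first *Sox17*-*Erg* library of Day 3 (3.96, adjusted p = 0.0561).

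*Cd34* (chromosome 1, 194938819 to 194961279, forward strand) was at 62.4 and 68.3 CPM in control libraries on Day 3, 184 and 194 on Day 7, and 351 and 241 after 4 weeks. The *Sox17*-*Erg* libraries held 8.55 and 13.3 CPM on Day 3, 29.5 and 72.1 on Day 7, and 107 and 97.9 after 4 weeks. *Cd34* thus climbed in both conditions, from a lower start in the *Sox17*-*Erg* cultures. The fitted log2 fold change was -2.58 ± 0.39 on Day 3, -1.90 ± 0.37 on Day 7 and -1.53 ± 0.37 after 4 weeks, with adjusted p-values of 0.00586, 0.00905 and 0.0162. The Day 3 call was lost without the first *Sox17*-*Erg* library of Day 3 (-2.34, adjusted p = 0.0685). The 4-week call was lost without the first control library or either *Sox17*-*Erg* library of 4 weeks, at -1.60 to -1.23 with adjusted p-values of 0.0824 to 0.0984. Without both control libraries that stood apart, the differences were -2.55 on Day 3 and -1.87 on Day 7, with adjusted p-values of 0.0538 and 0.0672. On Day 7 the call was also lost with only the libraries of that time point (-1.92, adjusted p = 0.065). *Cd34* shares 148 exonic bases with the antisense gene *Gm16897*.

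Promoter windows of *Cd34*, *Emcn* and *Mcam* were held in the RefSeq promoter table of GRCm38.p6, and both sialomucins are printed because they moved in opposite directions. The window runs from base -250 to base -12 before the RefSeq start, 239 bases on the forward strand. Capitals mark, on either strand, the letters GGAA, the core bound by ETS factors such as ERG, the longer ETS motif CAGGAAG, which holds that core, and the letters AACAAT, a core bound by SOX factors.
Emcn, chr3:137340828-137341066: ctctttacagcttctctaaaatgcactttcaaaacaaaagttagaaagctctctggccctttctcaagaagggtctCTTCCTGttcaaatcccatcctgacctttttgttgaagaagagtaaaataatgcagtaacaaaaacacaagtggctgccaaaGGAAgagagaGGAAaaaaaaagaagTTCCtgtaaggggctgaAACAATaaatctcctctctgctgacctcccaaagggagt
Cd34, chr1:194938571-194938809: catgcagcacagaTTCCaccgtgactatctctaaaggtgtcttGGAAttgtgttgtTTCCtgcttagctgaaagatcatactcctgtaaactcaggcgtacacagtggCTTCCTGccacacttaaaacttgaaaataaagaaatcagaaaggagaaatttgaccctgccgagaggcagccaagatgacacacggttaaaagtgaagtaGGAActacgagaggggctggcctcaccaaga

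*Emcn* held 4 GGAA cores, 1 of them inside its single CAGGAAG, and 1 AACAAT. *Cd34* held 5 GGAA cores, 1 of them inside its single CAGGAAG, and 0 AACAAT. *Mcam*, whose window reaches into the annotated gene and is not printed, held 1 GGAA core and neither longer motif. Of the 32851 promoter windows in the table, 92.6% held GGAA, with a median of 3, 10.3% held CAGGAAG and 9.2% held AACAAT. A match describes these letters only, and binding was not measured here.

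*Mcam* (chromosome 9, 44134469 to 44142727, forward strand), an immunoglobulin receptor of endothelial and mural cells, was at 71.0 and 53.6 CPM in control libraries on Day 3, 14.7 and 8.28 on Day 7, and 2.91 and 6.95 after 4 weeks. In *Sox17*-*Erg* libraries *Mcam* was at 378 and 331 CPM on Day 3, 497 and 197 on Day 7, and 252 and 289 after 4 weeks. The groups were apart throughout, and the control mean was lower at each later time point. Its log2 fold change was 2.51 ± 0.49 on Day 3, 4.92 ± 0.55 on Day 7 and 5.80 ± 0.58 after 4 weeks, with adjusted p-values of 0.0149, 0.000636 and 0.000198. Without either control library or the first *Sox17*-*Erg* library of Day 3, the Day 3 difference was 2.28 to 2.72 with adjusted p-values of 0.0814 to 0.123, and without both control libraries that stood apart it was 2.28 with an adjusted p of 0.126. Mural genes moved beside *Mcam*: of 10 mural markers, 2 were higher on Day 3, 5 higher and 1 lower on Day 7, and 4 higher and 3 lower after 4 weeks. Of all genes tested, 7.19%, 9.48% and 11.9% were higher and 5.13%, 7.93% and 11% lower in order of time. The summed level of the mural markers ranged from 1271 to 4156 CPM in control and from 2923 to 5396 in *Sox17*-*Erg* libraries. The mural genes did not move one way: after 4 weeks *Rgs5*, *Cspg4*, *Notch3* and *Myh11* were higher, by 2.46 to 3.65 on the log2 scale, and *Kcnj8*, *Abcc9* and *Des* were lower, at -2.34, -2.33 and -1.90. *Kcnj8* rests on few counts, 43 and 10 in control and 3 and 5 in *Sox17*-*Erg* libraries. The part of mural RNA in the *Mcam* result was not tested.

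*Cd93* (chromosome 2, 148436640 to 148443563, reverse strand) encodes a lectin-like receptor that binds the vessel matrix protein multimerin 2. Control libraries held 14.7 and 17.7 CPM on Day 3, 12.4 and 18.8 on Day 7, and 1.35 and 5.90 after 4 weeks. The *Sox17*-*Erg* libraries held 53.5 and 35.8 CPM of *Cd93* on Day 3, 77.1 and 43.0 on Day 7, and 57.2 and 51.2 after 4 weeks. The groups were apart at each time point. On the log2 scale the fold change was 1.46 ± 0.53 on Day 3 (adjusted p = 0.0994), 1.95 ± 0.53 on Day 7 (adjusted p = 0.0349) and 3.95 ± 0.59 after 4 weeks (adjusted p = 0.00171). The Day 7 call was lost in 8 of 12 cases of leaving out 1 library, with log2 fold changes from 1.46 to 2.28 and adjusted p-values from 0.0512 to 0.216. It was kept only without either control library of 4 weeks, the second *Sox17*-*Erg* library of Day 3 or the second of Day 7. Without both control libraries that stood apart it was 2.27 with an adjusted p of 0.138. The Day 3 difference passed in the Wald test of DESeq2 (1.45, adjusted p = 0.0292) and with no filter on low counts (1.47 ± 0.29, adjusted p = 0.000179). It also passed with only the libraries of that time point (1.44, adjusted p = 0.0253), and without either control library of 4 weeks.

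**Figure D2:**
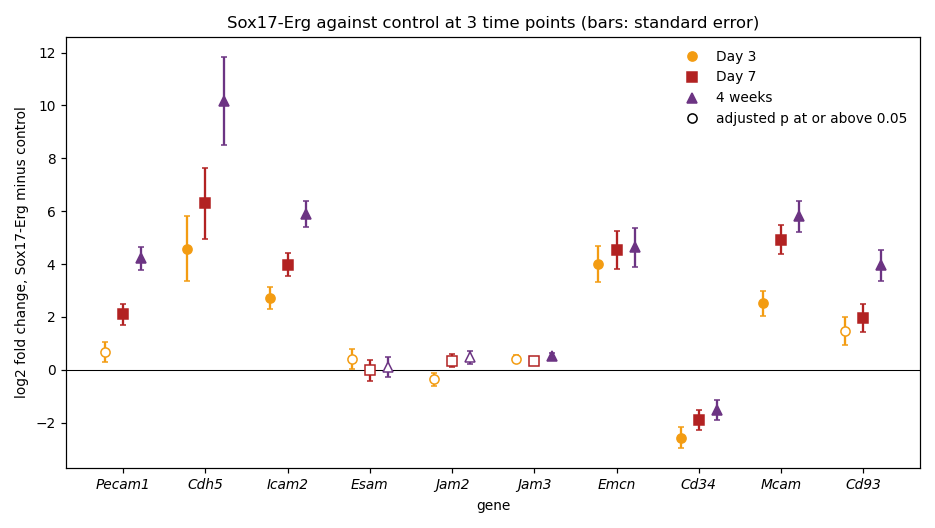
Log2 fold change of *Sox17*-*Erg* against control for each gene on Day 3, on Day 7 and after 4 weeks, with bars of 1 standard error and open symbols where the adjusted p was at or above 0.05. Filled symbols above 0 numbered 4, 6 and 7 in order of time, and *Cd34* was below 0 at each.

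Macrophage RNA varied between libraries of 1 group, which is given here because myeloid cells express *Pecam1* and *Cd93*. After 4 weeks the sum of 10 macrophage markers was 47.8 and 432 CPM in the control libraries, where *Pecam1* was at 3.46 and 8.17 and *Cd93* at 1.35 and 5.90. In the *Sox17*-*Erg* libraries the sum was 69.7 and 347 CPM, while *Pecam1* was at 117 and 94.6 and *Cd93* at 57.2 and 51.2. After 4 weeks the library with more macrophage RNA thus had more of both genes in control and less of both in *Sox17*-*Erg*. On Day 3 the order in control was the opposite one, with sums of 454 and 295 CPM beside *Pecam1* at 12.6 and 16.7 and *Cd93* at 14.7 and 17.7. On Day 7 it was the same as after 4 weeks, with sums of 915 and 1316 CPM beside *Pecam1* at 8.95 and 12.4 and *Cd93* at 12.4 and 18.8. On that day the *Sox17*-*Erg* sums were 282 and 455 CPM, and all 10 markers were lower in both *Sox17*-*Erg* libraries than in both control libraries, at -1.85 to -1.07 on the log2 scale, beside 28.8% of all genes without overlap downward. Of the 10 markers, 0 passed the test between conditions at any time point by edgeR, 0 at an unadjusted p under 0.05 and 0 by DESeq2. Over all time points their sum ranged from 47.8 to 1316 CPM in control and from 69.7 to 455 in *Sox17*-*Erg* libraries, and *C1qa*, a defining marker, was above 0 in each. The part of macrophage RNA in the *Pecam1* and *Cd93* results was not tested. The 8 platelet and megakaryocyte markers summed to no more than 12.8 CPM in any library, and none of the 3 tested differed by edgeR at any time point, with 1 at an unadjusted p under 0.05 on Day 3 and on Day 7 and 0 after 4 weeks. By DESeq2 1 of them, *Pf4*, was lower on Day 7.

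The endothelial label of the cells was checked on 10 further endothelial markers. After 4 weeks *Kdr*, *Tie1*, *Egfl7* and *Vwf* were higher and *Eng* was lower, and *Kdr* and *Tek* were higher at the earlier time points. *Cldn5*, the main claudin of endothelial tight junctions, reached at most 0.462 CPM, *Robo4* at most 1.17 and *Sox18* at most 1.63 in the 12 libraries, with the highest value of *Cldn5* in a control library. The summed level of the 10 markers ranged from 386 to 1535 CPM in control and from 364 to 747 in *Sox17*-*Erg* libraries, most of it from *Eng*. Of 10 fibroblast markers 4 were lower and 1 higher after 4 weeks, beside 11% and 11.9% of all genes tested. The sum of the fibroblast markers ranged from 16654 to 40262 CPM in control and from 12824 to 42007 in *Sox17*-*Erg* libraries. Cardiomyocyte and mesothelial markers were present at 337 to 1533 and 155 to 1471 CPM. Of these, 7 of 10 and 7 of 8 were lower in the *Sox17*-*Erg* cultures after 4 weeks, beside 11% of all genes tested. *Tnnt2* made up most of the cardiomyocyte sum in each library and did not pass after 4 weeks (-0.63 ± 0.28, adjusted p = 0.139). The part of cardiomyocyte and mesothelial RNA in the lower *Cd34* level was not tested.

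Changes of the *Sox17*-*Erg* effect over time were tested as a difference between time points. From Day 3 to 4 weeks the effect grew for *Pecam1*, *Icam2* and *Mcam*, that is for 3 of 10 members beside 2.22% of all genes tested that moved upward. The difference grew by 3.54 ± 0.55 for *Pecam1* (adjusted p = 0.0109), 3.20 ± 0.64 for *Icam2* (adjusted p = 0.0315) and 3.30 ± 0.69 for *Mcam* (adjusted p = 0.0374) on the log2 scale. *Cdh5* had the largest estimate with the largest error, 5.60 ± 1.89 (adjusted p = 0.164), which passed with no filter on low counts (5.59 ± 0.89, adjusted p = 1.4e-05), and *Cd93* had 2.49 ± 0.76 (adjusted p = 0.128). The *Cd93* change passed by DESeq2 (2.48 ± 0.73, adjusted p = 0.0134), with no filter on low counts, and without the second control library of 4 weeks (3.90, adjusted p = 0.0165). *Emcn*, *Jam3* and *Esam* had estimates of 0.63, 0.11 and -0.30 with errors of 0.95, 0.18 and 0.54. For *Cd34*, which was lower than control, the change was 1.04 ± 0.52 and did not pass (adjusted p = 0.356). *Jam2* had 0.82 ± 0.35 and did not pass (adjusted p = 0.276), while with the block within time points it was called (0.85 ± 0.17, adjusted p = 0.0353). Without both control libraries that stood apart none of the 3 passed: *Pecam1* had 3.38, *Icam2* 3.45 and *Mcam* 3.55, with adjusted p-values of 0.054, 0.091 and 0.0807.

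Single libraries also ended these calls. For *Pecam1* it was the second *Sox17*-*Erg* library of Day 3 (3.52, adjusted p = 0.0506). For *Icam2* any of 7 libraries did so, all those of Day 3 and 4 weeks except the first *Sox17*-*Erg* library of Day 3, with values from 2.80 to 4.06 and adjusted p-values from 0.0592 to 0.126. For *Mcam* any of 7 did so, all those of Day 3 and 4 weeks except the second control library of 4 weeks, with values from 2.77 to 3.55 and adjusted p-values from 0.0783 to 0.125.

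Between Day 3 and Day 7, 0 members passed in edgeR beside 0.0838% of all genes, with 2 at an unadjusted p under 0.05 and 1, *Mcam*, by DESeq2. *Mcam* also passed with the block within time points (2.32 ± 0.33, adjusted p = 0.0395). From Day 7 to 4 weeks 0 passed beside 0.0387%, with 3 at an unadjusted p under 0.05 and 1, *Pecam1*, by DESeq2. With no filter on low counts, *Mcam* and *Pecam1* passed in the earlier interval and *Pecam1*, *Cd93* and *Cdh5* in the later one, so whether a shorter interval held the widening depended on the setting.

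The same contrast was split into its parts, the change from Day 3 to 4 weeks within each condition. In the control cultures *Pecam1*, *Icam2*, *Mcam* and *Cd93* fell and *Cd34* and *Jam2* rose, beside 12.6% of genes falling and 13.9% rising. In the *Sox17*-*Erg* cultures *Pecam1*, *Jam2*, *Jam3* and *Cd34* rose beside 15.1% of genes, and 0 members fell beside 15.6% of genes by edgeR, with 0 at an unadjusted p under 0.05 and 0 by DESeq2. *Pecam1* changed in opposite directions in the conditions, by -1.35 ± 0.39 in control (adjusted p = 0.0327) and 2.19 ± 0.38 in *Sox17*-*Erg* (adjusted p = 0.00392), and the control fall was lost without any of 4 single libraries, at -1.54 to -0.84 with adjusted p-values of 0.0517 to 0.171.

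The growing difference of *Mcam* lay on the control side, where it changed by -3.69 ± 0.53 (adjusted p = 0.0018), against -0.39 ± 0.46 in *Sox17*-*Erg* (adjusted p = 0.562). *Icam2* changed by -2.16 ± 0.52 in control (adjusted p = 0.0154) and by 1.04 ± 0.37 in *Sox17*-*Erg* (adjusted p = 0.0611), and the latter passed with the replicate block over all libraries (1.12 ± 0.30, adjusted p = 0.0242), by DESeq2 and with no filter on low counts. *Cd93* changed by -2.21 ± 0.57 in control (adjusted p = 0.0207) and by 0.28 ± 0.51 in *Sox17*-*Erg* (adjusted p = 0.717). *Cd34* and *Jam2* rose on both sides, *Cd34* by 2.18 ± 0.38 in control and 3.22 ± 0.40 in *Sox17*-*Erg*, and *Jam2* by 0.82 ± 0.25 and 1.64 ± 0.25, with adjusted p-values of 0.00409, 0.00102, 0.0379 and 0.00236. The *Jam2* call in control was lost without any of 4 single libraries, at 0.67 to 0.95. *Jam3* had 0.29 ± 0.13 in control, which did not pass (adjusted p = 0.135). It rose in *Sox17*-*Erg* by 0.40 ± 0.13 (adjusted p = 0.0458). That call was lost with the replicate block over all libraries (0.40 ± 0.13, adjusted p = 0.0533) and with no filter on low counts (0.41 ± 0.17, adjusted p = 0.104). The call was also lost without any of 6 single libraries, at 0.35 to 0.50.

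*Emcn* had a negative change in both conditions, -1.91 ± 0.75 in control and -1.28 ± 0.60 in *Sox17*-*Erg*, neither of which passed (adjusted p = 0.0894 and 0.137). Both passed with no filter on low counts (adjusted p = 0.00023 in control and 0.0020 in *Sox17*-*Erg*). The control change also passed without the first control library of Day 3 (-2.72, adjusted p = 0.0166), and that in *Sox17*-*Erg* without either control library of Day 3 (-1.28 and -1.23, adjusted p = 0.0377 and 0.0419). Without both control libraries that stood apart the change in *Sox17*-*Erg* was -1.23 ± 0.16 and passed (adjusted p = 0.00366), the control change was -0.16 ± 0.26, and the difference between conditions turned from 0.63 to -1.07. The control change of *Cdh5* was -4.27 ± 1.55 and did not pass (adjusted p = 0.0711). It passed by DESeq2 (-4.22, adjusted p = 0.0176), with no filter on low counts and without any of 3 single control libraries (-5.21 to -4.26, adjusted p = 0.0314 to 0.0400), and without both libraries that stood apart it was -1.26 (adjusted p = 0.227). For *Cdh5* the change in *Sox17*-*Erg* was 1.32 ± 1.05 (adjusted p = 0.377) with all libraries and 1.37 ± 0.31 (adjusted p = 0.018) without these 2. In that fit the falls of *Pecam1*, *Icam2* and *Cd93* and the rise of *Jam2* in control no longer passed. Their estimates were -1.15, -2.36, -2.08 and 0.94 on the log2 scale, against -1.35, -2.16, -2.21 and 0.82 with all libraries. Of the 4 falls in control, *Mcam* alone was kept when any single library was left out. From Day 3 to Day 7 *Cd34* rose in control (1.53 ± 0.37, adjusted p = 0.0371) beside 4.7% of genes, and *Mcam* fell (-2.44 ± 0.50, adjusted p = 0.022) beside 4.06%. Over the same days *Cd34* rose in *Sox17*-*Erg* (2.21 ± 0.39, adjusted p = 0.0261) beside 2.04% of genes.

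**Figure D3:**
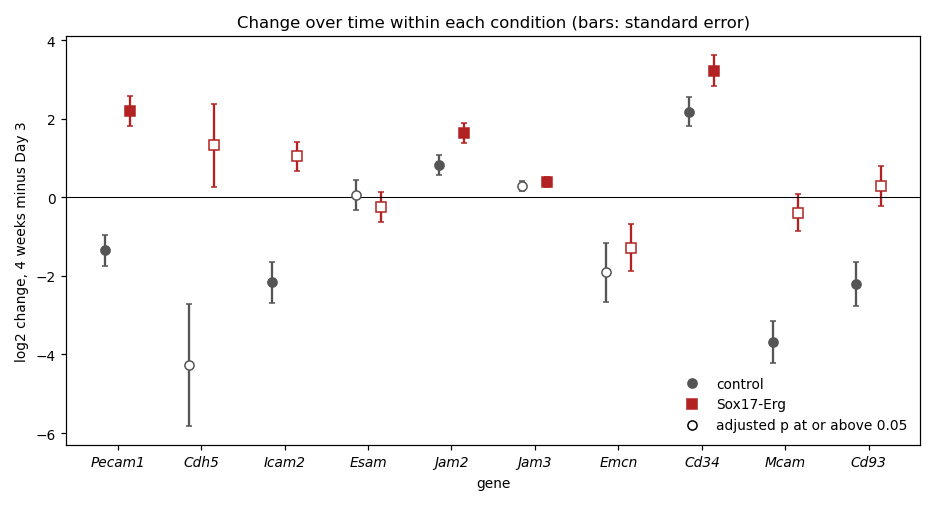
Log2 change from Day 3 to 4 weeks within control (circles) and within *Sox17*-*Erg* (squares) for each gene, with bars of 1 standard error and open symbols where the adjusted p was at or above 0.05. *Pecam1* was at -1.35 in control and 2.19 in *Sox17*-*Erg*, and *Mcam* at -3.69 and -0.39.

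Levels were compared between genes as CPM per kilobase of annotated exon, which sets aside gene length but not which transcripts were made. In control cultures on Day 3 *Mcam* led with 18.6, followed by *Cd34* with 8.97, *Jam3* with 6.61 and *Jam2* with 4.21, each above the next in both libraries. From *Cd93* at 2.42 down to *Icam2* at 0.536 the neighbours overlapped. After 4 weeks in control *Cd34* led with 40.6, *Jam3* and *Jam2* followed with 8.06 and 7.41 and overlapped, and *Cdh5* was last with 0.0975 beside *Icam2* with 0.111.

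In *Sox17*-*Erg* cultures *Mcam* led on Day 3 with 106 CPM per kilobase, above *Cdh5* with 42.4 and *Emcn* with 12.5, and the 3 did not overlap. On Day 7 *Mcam* with 104 and *Cdh5* with 77.1 overlapped and stood above the other 8, of which *Emcn* with 10.6 to *Jam2* with 5.98 overlapped neighbour by neighbour. After 4 weeks *Cdh5* led with 106, then *Mcam* with 80.7, *Pecam1* with 17.0 and *Cd34* with 14.1, each clear of the next. *Jam3* with 11.6 and *Jam2* with 10.2 overlapped, and *Cd93* with 8.11 overlapped *Icam2* with 7.26. *Emcn* with 5.16 and *Esam* with 0.743 closed the order, as *Esam* had at each *Sox17*-*Erg* time point.

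**Figure D4:**
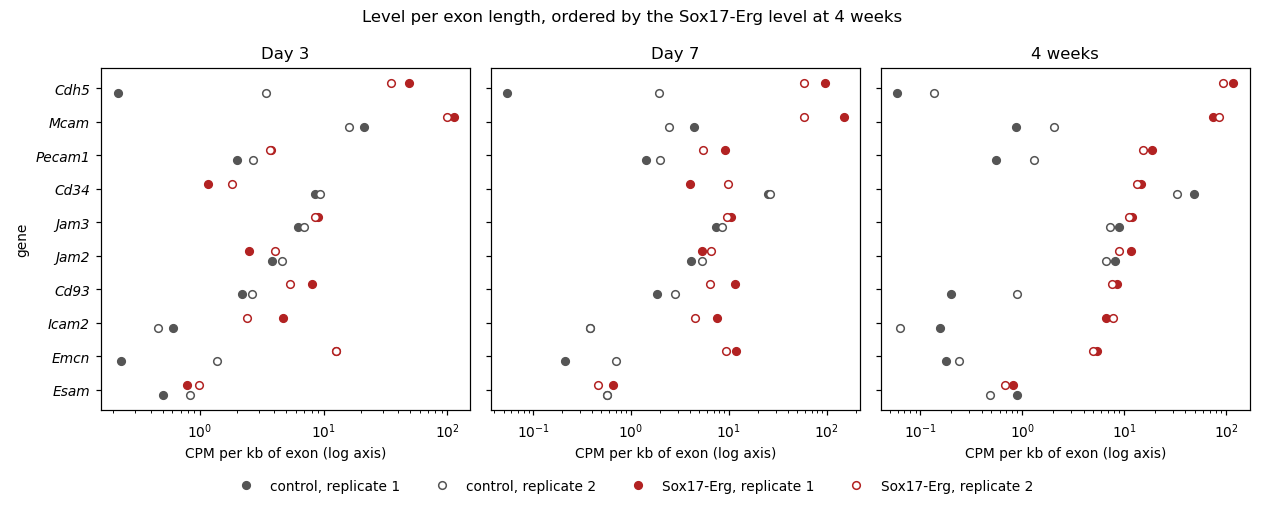
CPM per kilobase of exon on a log axis on Day 3, on Day 7 and after 4 weeks, for control and *Sox17*-*Erg* libraries, with genes ordered by their *Sox17*-*Erg* level after 4 weeks. *Cdh5* and *Mcam* stood at the top in *Sox17*-*Erg* after 4 weeks with means of 106 and 80.7, and *Cd34* at the top in control with 40.6.

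The genes most like *Pecam1* and *Cdh5* were ranked by the Pearson correlation of log2 CPM over the 12 libraries, which share their groups and depths, so the values are descriptions. For *Pecam1* they were *Prex1* (0.98), *Entpd1* (0.98), *Ciart* (0.97), *Rasl12* (0.97) and *Lypla2* (0.97). For *Cdh5* they were *Rgl1* (0.98), *Erg* itself (0.98), *Robo1* (0.97), *Fam43a* (0.97) and *S1pr1* (0.97). The endogenous and retroviral copies of *Erg* are not told apart by counts per gene. Among the members, *Cdh5* was most like *Emcn* (0.96) and *Icam2* (0.93) and least like *Cd34* (-0.63), and *Pecam1* was most like *Icam2* (0.90) and *Cdh5* (0.90) and least like *Cd34* (-0.41).

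Intracellular and membrane partners of these junctions were listed beside the members. Of 22 junction partners 21 were tested, and 5 were higher and 0 lower on Day 3. On Day 7, 3 were higher and 1 lower, and after 4 weeks 6 were higher and 1 lower. Of all genes tested, 7.19%, 9.48% and 11.9% were higher and 5.13%, 7.93% and 11% lower in order of time. For the 0 lower partners on Day 3, 2 had an unadjusted p under 0.05 and 0 were called by DESeq2. Without both control libraries that stood apart 0 were higher on Day 3. The median log2 fold change of the partners was 0.13, 0.24 and 0.18 in order of time, against 1.07, 2.02 and 4.08 for the members.

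*Ptprb*, the phosphatase VE-PTP that binds VE-cadherin and TIE2, led the partners that passed the test. Control libraries held 173 and 122 CPM of it on Day 3, 56.2 and 36.6 on Day 7, and 20.7 and 52.5 after 4 weeks, and *Sox17*-*Erg* libraries 708 and 579, 775 and 614, and 819 and 632. Like *Mcam* it was far above control at each time point, with a log2 fold change of 4.31 ± 0.45 after 4 weeks (adjusted p = 0.00025). *Magi1*, a junction scaffold, was at 7.72 and 8.34 CPM in control and 17.4 and 14.0 in *Sox17*-*Erg* libraries after 4 weeks (0.97 ± 0.22, adjusted p = 0.0117). *Amotl2*, a junction-linked angiomotin, was lower by 0.77 on the log2 scale, at 682 and 505 against 389 and 304 CPM (adjusted p = 0.0118). It was the single lower partner after 4 weeks, while *Cgnl1*, the cingulin-like protein, was the one on Day 7. With the block within time points 6 partners were higher on Day 7, 1 was lower on Day 3 and 3 were lower after 4 weeks.

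Genes of leukocyte adhesion other than *Icam2* were mixed. Of 11 listed genes 9 were tested, and 2 were higher and 0 lower on Day 3. On Day 7, 2 were higher and 2 lower, and after 4 weeks 3 were higher and 2 lower. The shares of all genes tested are those given beside the junction partners. *Icam1*, the inducible relative of *Icam2*, was at 61.4 and 40.0 CPM in control and 20.1 and 15.5 in *Sox17*-*Erg* libraries after 4 weeks (-1.51 ± 0.34, adjusted p = 0.0119). *Icam1* and *Icam2* thus moved in opposite directions on Day 7 and after 4 weeks. *Vcam1*, a ligand of leukocyte integrin VLA-4, was at 377 and 515 CPM in control and 1219 and 919 in *Sox17*-*Erg* libraries after 4 weeks (1.26 ± 0.21, adjusted p = 0.00259). *Cd44*, the hyaluronan receptor, was at 22.5 and 33.3 against 392 and 316 CPM (3.67 ± 0.28, adjusted p = 5.25e-05). *Cd99l2*, also listed among the junction partners, was higher by 0.65 ± 0.11 (adjusted p = 0.00316), and *Alcam* was lower by 0.84 (adjusted p = 0.0439).

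Of 20 other endothelial surface genes, all tested, 4 were higher and 2 lower on Day 3. On Day 7, 4 were higher and 3 lower, and after 4 weeks 6 were higher and 5 lower. Of all genes tested, 7.19%, 9.48% and 11.9% were higher and 5.13%, 7.93% and 11% lower in order of time. The median log2 fold changes of the 20 genes were -0.43, -0.15 and 0.15. *Kdr*, *Tie1*, *Tek*, *Eng*, *Robo4*, *Clec14a* and *Egfl7* were also counted among the further endothelial markers above, so these lists are not independent. *S1pr1*, the sphingosine 1-phosphate receptor that supports endothelial junctions, was at 1.23 and 1.22 CPM in control and 163 and 124 in *Sox17*-*Erg* libraries after 4 weeks (6.87 ± 0.47, adjusted p = 2.75e-05). *Tie1*, the orphan partner of TIE2, was at 0.451 and 0.285 against 12.1 and 8.22 CPM (4.73 ± 1.20, adjusted p = 0.0207). *Podxl*, a sialomucin of the CD34 family, was at 0.376 and 1.26 against 19.5 and 14.5 CPM (4.45 ± 0.49, adjusted p = 0.00034). *Podxl* and *Emcn* were thus higher than in control while *Cd34* was lower.

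The lower genes of this set were led by *Cd36*, a fatty acid and thrombospondin receptor, which was at 25.9 and 30.1 CPM in control and 0.602 and 3.15 in *Sox17*-*Erg* libraries after 4 weeks (-3.90 ± 0.65, adjusted p = 0.00287). *Ly6e* was at 347 and 374 against 87.8 and 93.9 CPM (-1.99 ± 0.18, adjusted p = 0.000135). *Ly6c1* was at 0.852 and 0.244 against 0.0708 and 0.0741 CPM (-2.88 ± 0.88, adjusted p = 0.0426). These are 34 and 6 against 2 and 2 counts, so this difference rests on few counts.

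**Figure D5:**
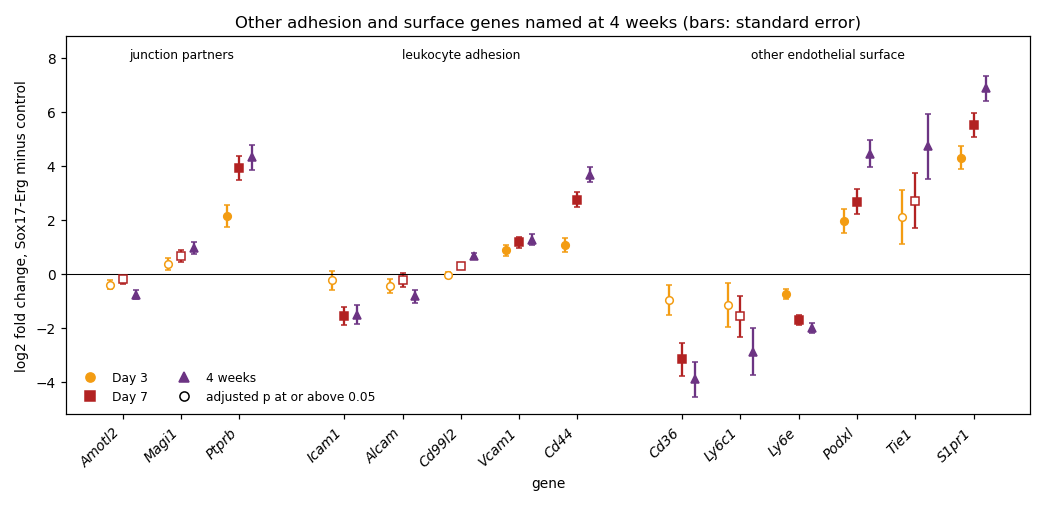
Log2 fold change of *Sox17*-*Erg* against control on Day 3, on Day 7 and after 4 weeks for the junction partners, leukocyte adhesion genes and other endothelial surface genes described from the 4-week calls, with bars of 1 standard error and open symbols where the adjusted p was at or above 0.05. *Ptprb* reached 4.31 and *S1pr1* 6.87, and *Cd36* lay at -3.90 after 4 weeks.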

How the data were processed

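Stranded Kapa mRNA libraries were sequenced as paired-end reads. Per the labels the authors used bcl2fastq 2.20.0, Salmon, DESeq2 and the mm10 build, and per the study's methods reads were trimmed for high GC content with BBDuk. The deposited values are estimated counts per gene, rounded to whole numbers by the authors and not scaled for library size. The Salmon version and annotation are not given in the sources used here. Symbols and positions came from GENCODE M21 of GRCm38, the genome of mm10. At most 2.78% of a member's 31-base words occur in other genes.

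Counts were fitted with edgeR 4.0.16 in R 4.3.3, with TMM factors, filterByExpr (minimum count 10, minimum total 15), 6 group means and a quasi-likelihood test with 6 residual degrees of freedom. P-values were adjusted by Benjamini-Hochberg over all 15506 genes tested, with a threshold of 0.05. CPM values use the TMM library sizes, and ± marks the standard error of the fit. The code was tested on simulated data. Members and gene lists were chosen with earlier results of these data known. Named were the 10 members, up to 3 called genes in each direction at 4 weeks from each of the 3 related lists, and the 5 genes most correlated with *Pecam1* and with *Cdh5* on log2 CPM with a prior count of 2. A gene that this rule names among the junction partners is not reported here. *Cgnl1*, *Pf4*, *C1qa*, *Tnnt2* and the called mural and endothelial markers were named after their values were seen.

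Replicate numbers come from the sample titles. Deviations of same-numbered libraries from their group means correlated by 0.19, 0.30 and 0.17 for Day 3, Day 7 and 4 weeks over 15506 genes, which are not independent, so the numbers were taken to pair the conditions within time points and were tried as a block. Within a condition same-numbered libraries also correlated between Day 3 and Day 7, by 0.17 in control and 0.22 in *Sox17*-*Erg*, but by -0.11 to -0.05 between either day and 4 weeks, for which a block with the numbers crossed at 4 weeks was added. Other alternatives were DESeq2 1.42.0, its size factors, other filters, fits of single time points and leaving out each library. A GC content offset, leaving out both control libraries that stood apart, and a crossed block were chosen after seeing the data.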

Additional observations from a re-analysis of the deposited data

Results flagged for a closer look

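For 3 members the *Sox17*-*Erg* effect differed between Day 3 and 4 weeks by the edgeR test of the difference itself. It grew by 3.54 on the log2 scale for *Pecam1*, by 3.20 for *Icam2* and by 3.30 for *Mcam*. Single libraries were not tested for standing apart from their group, since each group has 2.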

How the results depend on the processing

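Of 20 differences of single members between conditions that passed the test, 9 were kept under all 22 alternatives and 11 were lost under at least 1, while none turned direction. Those kept were all of *Icam2*, *Emcn* and *Mcam* on Day 7 and 4 weeks, and *Pecam1*, *Cdh5* and *Cd93* after 4 weeks. Without both control libraries that stood apart, 2 members were higher and 0 lower on Day 3, 0 lower on Day 7, the effect changed from Day 3 to 4 weeks for 0, 1 fell in *Sox17*-*Erg*, 1 rose and 1 fell in control from Day 3 to 4 weeks, and 0 junction partners were higher on Day 3. With only the libraries of the time point, 0 members were lower on Day 7, and 1 partner was lower on Day 3 and 0 after 4 weeks. With no filter on low counts the effect changed for 2 and 3 members in the earlier and later interval and for 5 over both, 1 member fell in *Sox17*-*Erg*, 5 partners were higher on Day 7 and 3 lower after 4 weeks. With the Wald test of DESeq2 the effect changed for 1 member in each of the shorter intervals, and 5 partners were higher on Day 7. The cause of these moves was not tested, and the shares of all genes called in these fits are not reported here.

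With the replicate block within time points the effect changed for 1 member from Day 3 to Day 7, 6 partners were higher on Day 7, and 1 was lower on Day 3 and 3 after 4 weeks. The replicate block over all libraries and the block with numbers crossed for the last time point each gave 2 partners lower after 4 weeks, and the crossed block also called *Jam3* higher on Day 3. Blocks changed no other count of calls by over 1.5 times, and the single members whose call a replicate block changed are given with their results. Changes over time within 1 condition were not fitted with the block within time points, since its levels lie within time points.

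Leaving out 1 library at a time gave 1 to 4 higher members on Day 3, then 4 to 6, then 6 to 7, and 0 to 1, 1 to 1 and 0 to 1 lower members. The effect changed for 0 to 0 members in both shorter intervals and for 0 to 3 from Day 3 to 4 weeks. From Day 3 to 4 weeks 3 to 5 members rose and 0 to 1 fell in *Sox17*-*Erg*, and 1 to 2 rose and 2 to 5 fell in control. By time point, 0 to 5, 2 to 3 and 4 to 6 partners were higher, and 0 to 0, 1 to 1 and 0 to 2 lower. In such a fit the lone library is assumed to vary like the other groups.

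Some differences of *Esam* and *Emcn* that passed at no setting listed next changed sign. *Esam* on Day 7 was 0.016 with the GC content offset and 0.0014 with the crossed block. Leaving out 1 library gave *Esam* -0.32 to 0.16 on Day 7, -0.25 to 0.62 after 4 weeks, -0.63 to 0.22 for its change of effect from Day 3 to 4 weeks and -0.47 to 0.43 for its change in control, where leaving out the second control library of Day 3 gave the ends -0.63 and 0.43. The change of effect of *Emcn* ran from -1.07, without the second control library of Day 3 alone or with that of Day 7, to 1.44. With 2 libraries per group the errors themselves are imprecise, and *Icam2* and *Cdh5* in control rest on few counts.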
